A study of Homo sapiens with 4 samples.

Results

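The mitochondrial ribosome, or mitoribosome, was followed here through the messenger RNAs of its nuclear-encoded proteins. Its members were all probe sets whose single platform gene symbol is MRPL or MRPS, then a number and an optional letter, with pseudogenes left out. This rule gave 140 of the 54675 probe sets on the array and 75 of the 19775 genes read. The cells were CL1-0 and CL1-5, human lung adenocarcinoma lines, and CL1-5 is the more invasive of them. CL1-0 cells stably carried an AK4 vector or a control vector, and CL1-5 cells stably carried AK4 shRNA or a non-silencing shRNA vector, and the cells of all 4 groups had been selected with puromycin. AK4 is an adenylate kinase of mitochondria. Each group was 1 Affymetrix HG-U133 Plus 2.0 array, read in 1 colour, so there are no replicates, nothing was tested for significance and precision is limited by the array count.

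The mitoribosome translates the few messenger RNAs made from mitochondrial DNA, which encode core subunits of the respiratory chain and ATP synthase. Its ribosomal RNAs come from mitochondrial DNA, and all of its proteins are encoded in the nucleus, made in the cytosol and imported. A small subunit decodes the messenger RNA, and a large subunit joins amino acids and releases the chain towards the inner membrane. Many of its proteins descend from bacterial ribosomal proteins, and others have no bacterial counterpart. Members are named for the subunit they were first assigned to. MRPS18A and MRPS30 are now known as proteins of the large subunit and were counted there, which gave 25 members of the small subunit and 50 of the large one. MRPS18A and MRPS18B, though relatives of a bacterial protein, were counted below with the mitochondria-specific proteins, those without a bacterial homolog.

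The sequences before the genes bear on what the members share beyond their names. A promoter entry, 250 bases before to 50 bases after a gene's start, was found for 67 of the 75 members in RefSeq, build GRCh38.p14. The other members are MRPL10, MRPL13, MRPL15, MRPL2, MRPL21, MRPL23, MRPL35 and MRPS28. Motifs of 3 factors known from promoters of nuclear-encoded mitochondrial genes were searched on both strands, chosen after the members' values had been seen. CCGGAAG, a core bound by ETS factors such as GABP, was present for 29 of the 67 members, or 43.3%, against 12.2% of all 27305 genes with an entry and 16.5% of the protein-coding ones. AAGATGG, the core of the YY1 motif, was present for 23 members, or 34.3%, against 7.11% of all genes and 7.9% of the protein-coding ones. The palindromic NRF1 consensus was present for 1 member, MRPL17, or 1.49%, against 1.52% of all genes and 1.99% of the protein-coding ones. A match describes these letters and does not show that a factor was bound. The following promoters belong to members that the results turn on, with the matches to the searched motifs in capitals and all other bases in lower case, read 5′ to 3′ on the strand of the gene. MRPL30 and MRPS27 are the members past 2-fold on the array labelled AK4 vector, MRPS12 and MRPS34 are among the lowest with AK4 shRNA, MRPL58 is among the lowest in CL1-5, and MRPL46 starts back to back with MRPS11.
MRPL30, chr2:99180934-99181233, plus strand: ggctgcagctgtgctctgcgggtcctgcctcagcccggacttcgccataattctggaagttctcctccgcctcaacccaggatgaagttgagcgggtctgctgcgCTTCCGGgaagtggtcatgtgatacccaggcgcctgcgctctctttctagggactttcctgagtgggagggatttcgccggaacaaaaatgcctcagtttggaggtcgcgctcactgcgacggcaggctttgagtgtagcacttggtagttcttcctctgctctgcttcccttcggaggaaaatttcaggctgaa
MRPS27, chr5:72320191-72320490, minus strand: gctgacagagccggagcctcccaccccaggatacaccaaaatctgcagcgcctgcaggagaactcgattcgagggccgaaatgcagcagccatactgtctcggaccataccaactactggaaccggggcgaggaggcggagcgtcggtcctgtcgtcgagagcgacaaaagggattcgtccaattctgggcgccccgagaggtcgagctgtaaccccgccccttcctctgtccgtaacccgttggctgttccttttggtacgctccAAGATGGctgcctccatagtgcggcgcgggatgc
MRPS12, chr19:38930694-38930993, plus strand: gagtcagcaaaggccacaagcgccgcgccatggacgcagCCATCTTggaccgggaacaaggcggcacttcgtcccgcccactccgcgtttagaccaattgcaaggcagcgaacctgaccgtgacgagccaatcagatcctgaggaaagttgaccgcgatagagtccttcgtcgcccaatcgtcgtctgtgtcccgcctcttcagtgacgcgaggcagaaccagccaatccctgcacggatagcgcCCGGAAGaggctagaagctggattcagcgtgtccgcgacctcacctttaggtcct
MRPS34, chr16:1773085-1773384, minus strand: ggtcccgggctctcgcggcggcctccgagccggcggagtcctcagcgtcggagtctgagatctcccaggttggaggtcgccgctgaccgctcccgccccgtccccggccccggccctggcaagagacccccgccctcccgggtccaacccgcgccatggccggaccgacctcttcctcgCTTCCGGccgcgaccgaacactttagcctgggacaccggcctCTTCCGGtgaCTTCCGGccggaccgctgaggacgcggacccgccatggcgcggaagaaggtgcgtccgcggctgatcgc
MRPL58, chr17:75012420-75012719, plus strand: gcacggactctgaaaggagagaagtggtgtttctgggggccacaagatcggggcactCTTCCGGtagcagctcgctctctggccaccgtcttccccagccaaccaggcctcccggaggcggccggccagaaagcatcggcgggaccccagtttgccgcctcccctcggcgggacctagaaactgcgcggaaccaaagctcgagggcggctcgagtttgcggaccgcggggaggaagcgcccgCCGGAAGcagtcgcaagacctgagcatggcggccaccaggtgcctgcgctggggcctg
MRPL46, chr15:88467339-88467638, minus strand: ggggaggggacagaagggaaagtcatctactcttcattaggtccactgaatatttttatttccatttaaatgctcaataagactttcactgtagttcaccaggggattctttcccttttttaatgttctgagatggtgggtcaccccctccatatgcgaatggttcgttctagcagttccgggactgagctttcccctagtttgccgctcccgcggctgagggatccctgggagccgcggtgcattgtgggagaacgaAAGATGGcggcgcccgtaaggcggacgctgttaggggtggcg
MRPL30 thus holds 1 ETS core, MRPS34 holds 3 and MRPL58 holds 2, MRPS27 and MRPL46 each hold 1 YY1 core, and MRPS12 holds 1 of each. No searched motif overlapped another in these sequences.

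Signals below are intensities scaled to a common trimmed mean, with values under a floor of 6.93 set to that floor, and a gene was read from its brightest probe set with 1 symbol. All 75 members lay above the floor on all 4 arrays. Their median signal was 391 on the array labelled AK4 vector and 390 with the control vector in CL1-0, and 317 with AK4 shRNA and 348 with non-silencing shRNA in CL1-5. Probe sets ending in _s_at or _x_at, which can detect further transcripts, were read for 42 and 3 of the members, and their values are uncertain where related transcripts share the signal. A further probe set was available for 37 members. Deposited values were identical on both CL1-5 arrays for 3287 probe sets, and on both CL1-0 arrays for 4502. Above the floor, scaling gives such ties a log2 ratio of -0.019 with AK4 shRNA and 0.024 with the AK4 vector. Shares below or above 0, of members and of all genes, thus count ties as differences.

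The arrays differed in more than the members. For beta-actin, the 3′ probe set over the 5′ one, a ratio that is larger in degraded RNA, was 6.54 on the array labelled AK4 vector and 6.04 with the control vector, and 1.61 with AK4 shRNA and 1.34 with non-silencing shRNA. For GAPDH the same ratio was 1.54 and 1.25 in CL1-0 with AK4 vector and control vector. It was 1.07 and 1.04 in CL1-5 with AK4 shRNA and non-silencing shRNA. The part of these ratios in the results below was not tested. AK4 itself had log2 ratios between -1.25 and -0.88 over its 4 probe sets with AK4 shRNA, but the array labelled AK4 vector had no AK4 probe set above its control, with log2 ratios between -0.25 and -0.050. Whether these probe sets lie within the vector's insert is not given in the sources used here, so the direction of the CL1-0 comparison rests on the label. The labels call the cells type II alveolar cells. Of 8 readable markers of that type, 5 were above the floor on each CL1-5 array, and 6 and 7 on the CL1-0 arrays with AK4 vector and control vector. Their summed signal was 133 and 137 on the CL1-5 arrays with AK4 shRNA and non-silencing shRNA, and 347 and 401 on the CL1-0 arrays with AK4 vector and control vector. Most of the difference lay in LAMP3, at the floor on both CL1-5 arrays, against 160 and 210 on the CL1-0 arrays with AK4 vector and control vector. ABCA3 was lower in CL1-5 too, with log2 ratios of -1.08 between the AK4-altered arrays and -0.98 between the control arrays, and NAPSA was higher, at 1.10 and 1.05 in the same order. The surfactant proteins SFTPB and SFTPC were dim on all 4 arrays, between 22.4 and 38.8, and SLC34A2 was at the floor on all of them. Of 4 readable leukocyte markers, 2 were above the floor with non-silencing shRNA and 1 on each other array, and PTPRC was at the floor on all arrays. Of 5 fibroblast markers, 3 were above the floor on each CL1-5 array and 1 on each CL1-0 array. Of 4 endothelial markers, 2 were above it on each CL1-5 array and with the control vector, and 1 with the AK4 vector. KRT18, a keratin of simple epithelium, had a signal of 1485 and 1681 on the CL1-5 arrays with AK4 shRNA and non-silencing shRNA. It had 10.8 and 12.1 on the CL1-0 arrays with AK4 vector and control vector. EPCAM and CDH1 were at the floor on both CL1-5 arrays, and also on the CL1-0 array with control vector. They lay little above it with the AK4 vector, with log2 ratios between the AK4-altered arrays no lower than -0.50.

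The comparison in CL1-5 asked what differs when AK4 is silenced. Mitoribosomal protein genes lay slightly lower with AK4 shRNA almost throughout. Of the 75 members, 66 had a log2 ratio below 0, or 88%, against 50.3% of the 15321 genes measured in that comparison. Their median log2 ratio was -0.13, against -0.0015 over all genes, and their ratios ran from -0.39 to 0.11. None was at least 2-fold lower, against 0.0131% of all genes, and none at least 2-fold higher, against 0.0914%. Probe sets for one gene differed among themselves by a pooled SD of 0.21 over all genes and 0.15 over the members. This SD is the spread of single probe sets, neither a replicate error nor the error of a median over genes. Fewer transcripts per cell and a smaller share of all RNA cannot be told apart here. Among 5602 genes above the floor on all arrays whose mean level lay within the range of the members, a set chosen after the values were seen, the median was 0.019 and 45.2% were below 0.

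Medians were below 0 in both subunits and in proteins of either origin. In the small subunit 21 of 25 members were below 0, with a median of -0.10, and in the large subunit 45 of 50, with a median of -0.14. Split further, 13 of 15 small-subunit proteins with a bacterial homolog were below 0 and 8 of 10 without one, and in the large subunit 27 of 30 with a homolog and 18 of 20 without one. The probe sets that had not been read for the members were mostly below 0 too. Of 47 such probe sets above the floor on all arrays, from 31 genes, 34 were below 0, with a median of -0.12. The 34 include a probe set each of MRPL55, MRPS12 and MRPS14 at -0.019, whose deposited values were identical on both arrays. They share the arrays and the scaling with the others. In the other comparisons these 47 probe sets had medians on the opposite side of 0 from the members, as given with each.

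**Figure D1:**
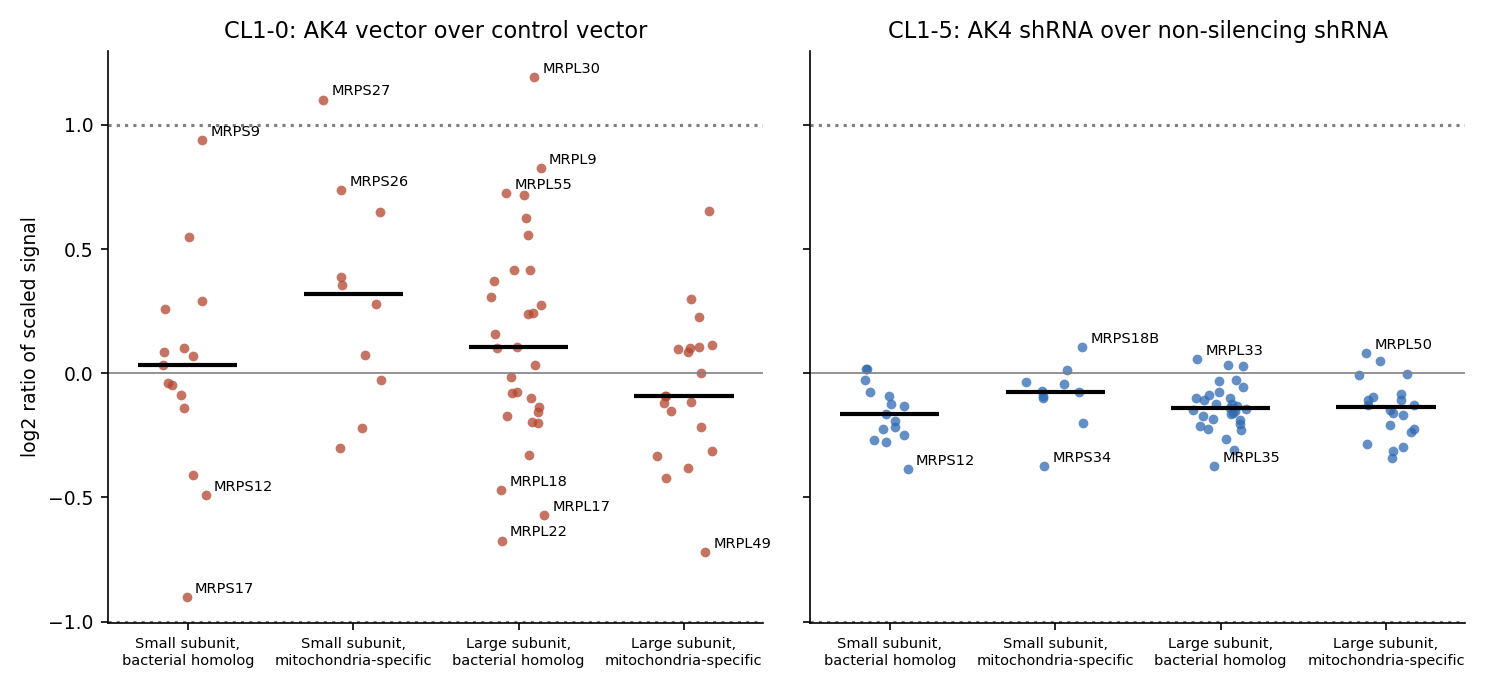
Log2 ratios of scaled signal (vertical axis, the same in both panels) for 75 mitoribosomal protein genes, 1 point per gene, by subunit and origin, with the AK4 vector comparison in CL1-0 at left and the AK4 shRNA comparison in CL1-5 at right. Black bars are medians and dotted lines mark 2-fold. The shRNA ratios lie between -0.39 and 0.11 with 66 of 75 below 0, and the vector ratios spread from -0.90 to 1.19.

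The lowest member was MRPS12, a protein of the decoding centre, with a signal of 317 with AK4 shRNA and 415 with non-silencing shRNA, a log2 ratio of -0.39. Its other probe sets, all dimmer, were at -0.64, -0.052 and -0.019. MRPL35, a large-subunit protein with a bacterial homolog, had 367 with AK4 shRNA and 476 with non-silencing shRNA, a ratio of -0.38. Without _x and _s probe sets, MRPL35 was at -0.15. MRPS34, a mitochondria-specific protein of the small subunit, had 147 with AK4 shRNA and 190 with non-silencing shRNA, a ratio of -0.37. Next came MRPL54 at -0.34, MRPL21 at -0.31 and MRPL52 at -0.31.

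The highest members lay near no difference. MRPS18B was at 0.11, with a signal of 550 with AK4 shRNA and 511 with non-silencing shRNA, but its other probe set was at -0.29. MRPL50, of the large subunit, was at 0.080, MRPL33 at 0.056, MRPL39 at 0.050, MRPL19 at 0.035 and MRPL9 at 0.027. MRPL12, a protein of the stalk that recruits translation factors, known also to bind mitochondrial RNA polymerase, had 286 with AK4 shRNA and 316 with non-silencing shRNA, a ratio of -0.15 close to the members' median. MRPL58, a peptidyl-tRNA hydrolase that frees stalled mitoribosomes, had 112 with AK4 shRNA and 137 with non-silencing shRNA, a ratio of -0.30.

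Other genes of mitochondrial translation did not all lie on the same side in CL1-5. Mitoribosomal proteins that carry other symbols had ratios of -0.38 for GADD45GIP1, -0.37 for CHCHD1, -0.020 for DAP3 and -0.0097 for PTCD3, so all 4 were below 0. Of 25 measured assembly factors, which build the mitoribosome, 18 were below 0, with a median of -0.066, and the largest ratios were -0.25 for RBFA, a factor of small-subunit maturation, and -0.21 for NDUFAB1, the mitochondrial acyl carrier protein. Of 18 mitochondrial aminoacyl-tRNA synthetases and amidotransferase subunits, which supply charged tRNA, 13 were below 0, with a median of -0.031 and the largest ratios at GATB (-0.28) and MARS2 (-0.26). Among 16 mitochondrial translation factors 5 were below 0 and the median was 0.032, with GUF1, a GTPase, at 0.27 and MTFMT, which formylates the initiator tRNA, at -0.27. The 9 genes of mitochondrial DNA transcription and replication had a median of 0.022 with 4 below 0, led by POLG2 (0.42), an accessory subunit of the mitochondrial DNA polymerase, and TEFM (0.19), a transcription elongation factor. The 8 measured regulators of mitochondrial biogenesis had 4 below 0 and a median of 0.092. GABPA, a GABP subunit, was at 0.39 and PPARGC1B, a coactivator of mitochondrial genes, at 0.26. Over all genes measured in this comparison 50.3% were below 0. No gene of these lists passed 2-fold, against 0.0131% of all genes lower and 0.0914% higher.

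Cytosolic ribosomal proteins had a median closer to 0. Of 56 measured genes 42 were below 0, or 75%, with a median of -0.029. Neither this list nor the others was set against the members in a test.

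**Figure D2:**
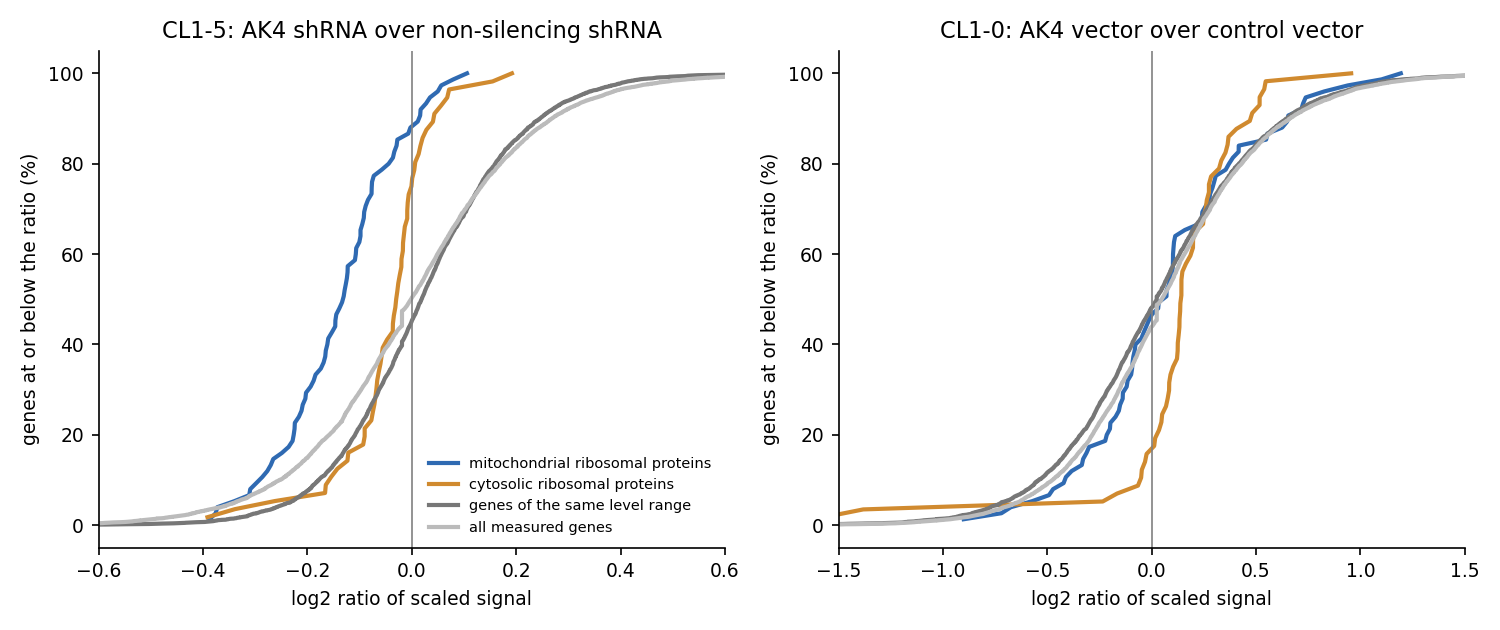
Cumulative share of genes (vertical axis, %) at or below each log2 ratio of scaled signal (horizontal axis) for AK4 shRNA over non-silencing shRNA in CL1-5 at left and AK4 vector over control vector in CL1-0 at right. Lines stand for 75 mitoribosomal protein genes, the cytosolic ribosomal protein genes, 5602 genes within the members' level range and all measured genes, and the horizontal axes differ between panels and are clipped. In CL1-5 the line of the members lies left of the others in the middle of its range, with 88% of members below 0, and in CL1-0 it runs close to the line of all genes.

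The comparison in CL1-0 set the array labelled AK4 vector against that of the control vector, with AK4 signal not higher on the labelled array. Here members lay on both sides of 0, and their median was close to that of all genes. On the array labelled AK4 vector 2 of 75 members were at least 2-fold higher, against 3.22% of the 14681 genes measured, and none at least 2-fold lower, against 1.16%. A ratio above 0 was found for 41 members, against 56.1% of all genes, and the median log2 ratio was 0.071, against 0.047 over all genes. The ratios spread from -0.90 to 1.19. Of the 47 probe sets not read for the members, 30 were below 0, with a median of -0.10. Between probe sets of one gene the pooled SD was 0.41 over all genes and 0.45 over the members.

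The members past 2-fold were MRPL30 and MRPS27. MRPL30, a large-subunit protein with a bacterial homolog, had a signal of 348 on the array labelled AK4 vector and 152 with the control vector, a log2 ratio of 1.19. Its 3 other probe sets that cleared the floor everywhere were at 0.65, 0.82 and 1.14, and averaging all its probe sets gave 0.77. Its signal was 217 with AK4 shRNA and 221 with non-silencing shRNA in CL1-5, between the CL1-0 values. MRPS27, a pentatricopeptide repeat protein of the small subunit, had 410 on the array labelled AK4 vector and 191 with the control vector, a ratio of 1.10, and 0.55 when its probe sets were averaged, 1 of which was below the floor on all arrays. MRPS9, a small-subunit protein with a bacterial homolog, followed at 0.94 with 451 on the array labelled AK4 vector and 235 with the control vector. MRPL9 was at 0.83 and its other probe set at 0.68. MRPS26, a mitochondria-specific protein of the small subunit, was at 0.74, and MRPL55, of the large subunit, at 0.73, but at 0.10 when its probe sets were averaged.

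At the low end stood MRPS17, a small-subunit protein with a bacterial homolog, with a signal of 427 on the array labelled AK4 vector and 797 with the control vector, a ratio of -0.90. MRPL49, a mitochondria-specific protein of the large subunit, was at -0.72, with 343 on the array labelled AK4 vector and 565 with the control vector. MRPL22 and MRPL17, which lie around the exit of the nascent chain, were at -0.67 and -0.57, MRPS12 at -0.49 and MRPL18 at -0.47. By class the medians were 0.031 for small-subunit proteins with a bacterial homolog, 0.32 for those without, 0.10 for large-subunit proteins with a homolog and -0.093 for those without. The proteins classed as mitochondria-specific in the 2 subunits thus had medians on opposite sides. Above 0 were 7 of 10 in the small subunit and 9 of 20 in the large one, against 56.1% of all genes. These classes include MRPS18B, at 0.65 with another probe set at -0.39, and MRPS18A, at -0.22. The difference between the classes was not tested.

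For several members the ratio in CL1-0 differed with the probe set read. Of 31 members that had more than 1 probe set clear of the floor on every array, 13 had all of them on one side of 0, and 6 had probe sets that differed by over 1 on the log2 scale. MRPL57 ranged from -1.03 to 0.87, MRPS25 from -0.12 to 1.35, MRPL42 from -0.14 to 1.16, MRPL35 from -0.28 to 1.0, MRPL55 from -0.52 to 0.73 and MRPS18B from -0.39 to 0.65. In the shRNA comparison none of the 31 differed by over 1, and 17 had all probe sets on one side.

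Most translation factors lay above 0 in CL1-0. They were 13 of 16 genes, with a median of 0.20, and MTRFR, a release factor-like protein of ribosome rescue, was at least 2-fold higher at 1.39, with a signal of 105 on the array labelled AK4 vector and 39.9 with the control vector. Cytosolic ribosomal proteins had 48 of 57 above 0 and a median of 0.14, with RPLP2 at -1.57 and RPL27A at -1.38 at least 2-fold lower. The aminoacyl-tRNA synthetase list had a median of 0.088 with SARS2 at 0.74 and MARS2 at -0.48, and the assembly factors a median of -0.014 with TFB1M, a methylase of the small-subunit RNA, at 0.93 and RPUSD4 at 0.89. The transcription and replication list had a median of 0.34, with the RNA polymerase POLRMT at 0.69. It had 5 of 9 genes above 0, close to the share of all genes. The 8 measured regulators had a median of -0.13 with 4 below 0. PPARGC1B was at 1.18, with 78.5 on the array labelled AK4 vector and 34.5 with the control vector, while GABPB1 was at -0.53, ESRRA at -0.52 and MYC at -0.43.

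The AK4 comparisons share no array. A ratio above 0 on the array labelled AK4 vector and below 0 with AK4 shRNA was found for 33 of 75 members, or 44%, against 25.7% of the 13741 genes measured in both. The opposite pair of signs was found for 1 member, MRPL50, against 20.3% of all genes. Ratios below 0 in both were found for 33 members, against 23.5%, and above 0 in both for 8, against 30.5%. The background here is the share of all genes with that pair of signs. Since 41 of 75 members were above 0 in CL1-0 and 66 of 75 below 0 in CL1-5, unrelated signs would already give slightly more than 33 members with the first pair, so its distance from the background adds nothing to the counts of each comparison. Across the 75 members, which share their arrays, r was 0.14 (Pearson) and rho 0.14 (Spearman), as a description with no test.

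**Figure D3:**
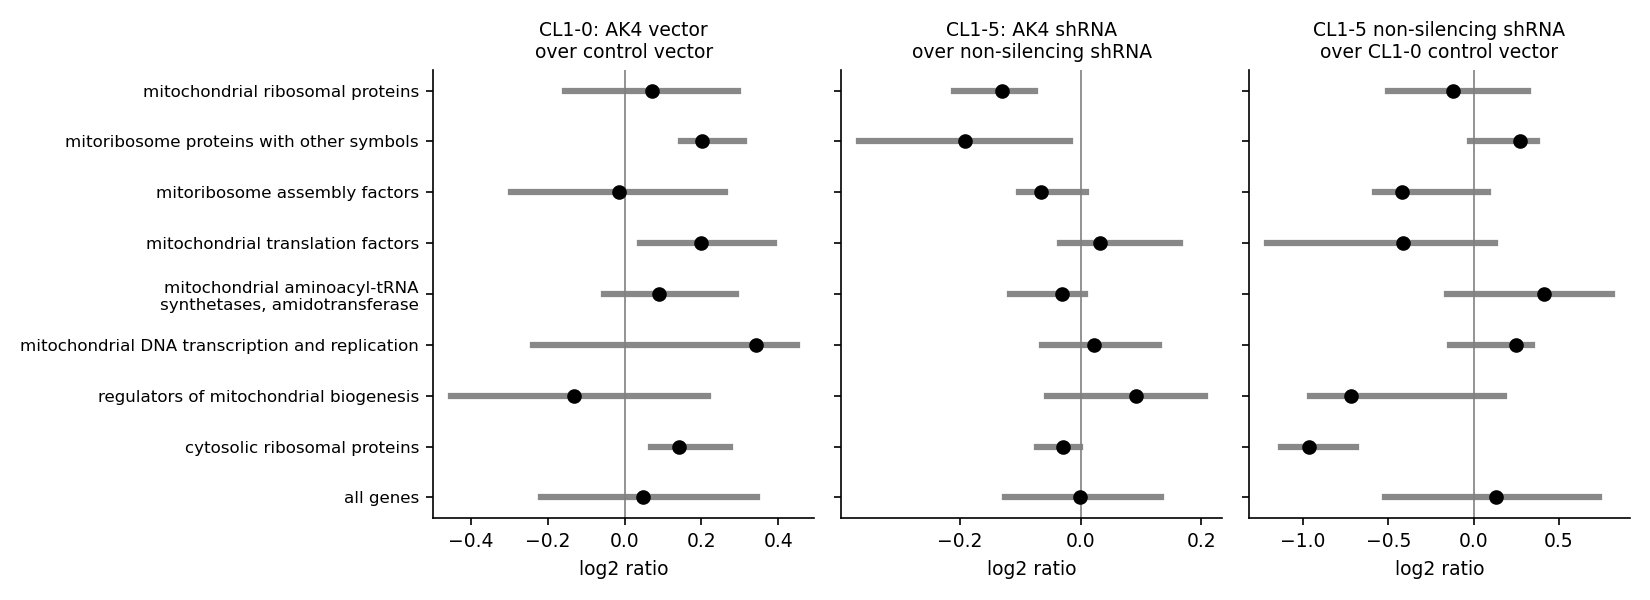
Median log2 ratio (points) and range between the quartiles (bars) of each gene list, down the page, in the AK4 vector comparison, the AK4 shRNA comparison and the comparison of the control arrays of both lines, with a horizontal axis of its own in each panel. The mitoribosomal proteins have medians of 0.071, -0.13 and -0.12, and the cytosolic ribosomal proteins 0.14, -0.029 and -0.96.

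The control arrays of CL1-5 and CL1-0 set the lines side by side. Between them the members differed in both directions. Of 75 members 6 were at least 2-fold higher in CL1-5, against 17.1% of the 15970 genes measured, and 8 at least 2-fold lower, against 14.2%. The median log2 ratio was -0.12, against 0.13 over all genes, and 45 members were below 0, or 60%, against 44% of all genes. Genes within the members' level range had a median of -0.15 with 55.8% below 0, closer to the members than all genes were. The 47 probe sets not read for the members had a median of 0.033, with 23 below 0. The lines also differed in the beta-actin ratio given above, and less in that of GAPDH. The part of either was not tested. The median of the members also depended on the scaling, at -0.014 with quantile normalization, -0.61 with a common median and 0.75 with the values as deposited. Over all genes the median was -0.064 with quantile normalization, -0.30 with a common median and 0.83 with the values as deposited.

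Highest in CL1-5 was MRPS2, a small-subunit protein with a bacterial homolog, with a signal of 535 in CL1-5 with non-silencing shRNA and 180 in CL1-0 with control vector, a log2 ratio of 1.57. MRPL19 had 436 in CL1-5 and 174 in CL1-0, a ratio of 1.32, and MRPS6 had 497 in CL1-5 and 209 in CL1-0, a ratio of 1.25. MRPL15, at 1.11, and MRPS28, at 1.05, also descend from bacterial proteins. MRPL39, a mitochondria-specific protein related to threonyl-tRNA synthetase, had 319 in CL1-5 and 159 in CL1-0, just past 2-fold. MRPL52 and MRPS34 followed at 0.93 and 0.90.

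Lowest in CL1-5 was MRPS17, with 215 in CL1-5 with non-silencing shRNA and 797 in CL1-0 with control vector, a ratio of -1.89. MRPL58 had 137 in CL1-5 and 404 in CL1-0, a ratio of -1.56. MRPL45, which sits at the tunnel exit facing the inner membrane, had 121 in CL1-5 and 349 in CL1-0, a ratio of -1.53. MRPL22 was at -1.39, MRPL40 at -1.33, MRPL23 at -1.30, MRPS33 at -1.09 and MRPS21 at -1.01. MRPL23 was read from a probe set ending in _s_at, and its other, dimmer probe set was at 0.21. Of the 31 members with further probe sets clear of the floor, 11 had probe sets over 1 apart in this comparison, among them MRPL30 from -1.56 to 0.54.

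**Figure D4:**
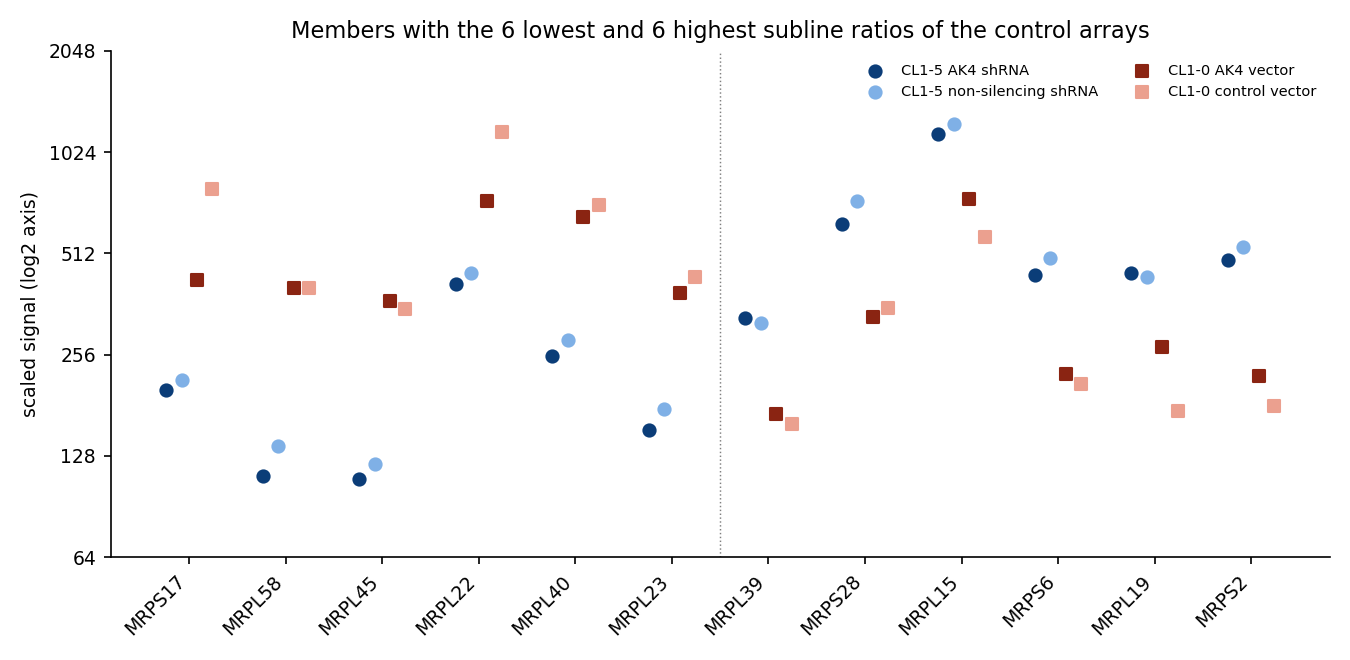
Scaled signal on a log2 axis of the members with the 6 lowest (left) and 6 highest (right) subline ratios of the control arrays, with 1 point per array and gene, CL1-5 arrays as circles and CL1-0 arrays as squares. For all 12 genes the CL1-5 points lie on one side of the CL1-0 points, from MRPS17 with 201 (AK4 shRNA) and 215 (non-silencing shRNA) in CL1-5 against 427 (AK4 vector) and 797 (control vector) in CL1-0 to MRPS2 with, in the same order of arrays, 488 and 535 in CL1-5 against 221 and 180 in CL1-0.

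A further pair of arrays, CL1-5 with AK4 shRNA and CL1-0 with AK4 vector, shares none with the pair of controls but adds the AK4 alterations to the subline. In that pair 1 member was at least 2-fold higher in CL1-5, MRPS2, against 14.7% of the 15821 genes measured, and 11 at least 2-fold lower, against 14.8%. The median was -0.34, against 0.074 over all genes, and 57 members were below 0, or 76%, against 46.5%. Genes within the members' level range had a median of -0.14 with 56.5% below 0. The 47 probe sets not read for the members had a median of 0.099 with 20 below 0. With the values as deposited the members' median was 0.57 with 16% below 0, and that of all genes 0.83. Both pairs put MRPS2 at least 2-fold higher and MRPL23, MRPL40, MRPL45, MRPL58, MRPS17, MRPS21 and MRPS33 at least 2-fold lower. The other 4 lower members of this pair were MRPL54 at -1.44, MRPS9 at -1.14, MRPL10 at -1.07 and MRPL47 at -1.06, and 13 of the 31 members with further probe sets had probe sets over 1 apart. Across the 75 members r was 0.82 (Pearson) and rho 0.73 (Spearman), as a description with no test, and 16 members had opposite signs. The shares of all genes past 2-fold in both pairs, or with opposite signs, were not counted. The likeness of the pairs is thus not a result about the members.

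Members whose arrays of one line did not overlap those of the other were counted over all 4 arrays. Both CL1-5 arrays lay below both CL1-0 arrays for 41 members, or 54.7%, against 34% of 16261 genes, and above for 14 members, or 18.7%, against 43.2%. Genes within the members' level range were not counted in this way. With a gap of at least 2-fold, 5 members lay below, against 9.6% of genes, namely MRPL23, MRPL40, MRPL45, MRPL58 and MRPS33, and 1 above, MRPS2, against 10.7%. Cytosolic ribosomal proteins lay below for 51 of 57 genes, 23 of them with a gap of at least 2-fold, and their median between the control arrays was -0.96. The 4 arrays are 4 groups and not replicates of a line, and the number of members with CL1-5 above CL1-0 was 58 with the values as deposited and 9 with a common median.

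**Figure D5:**
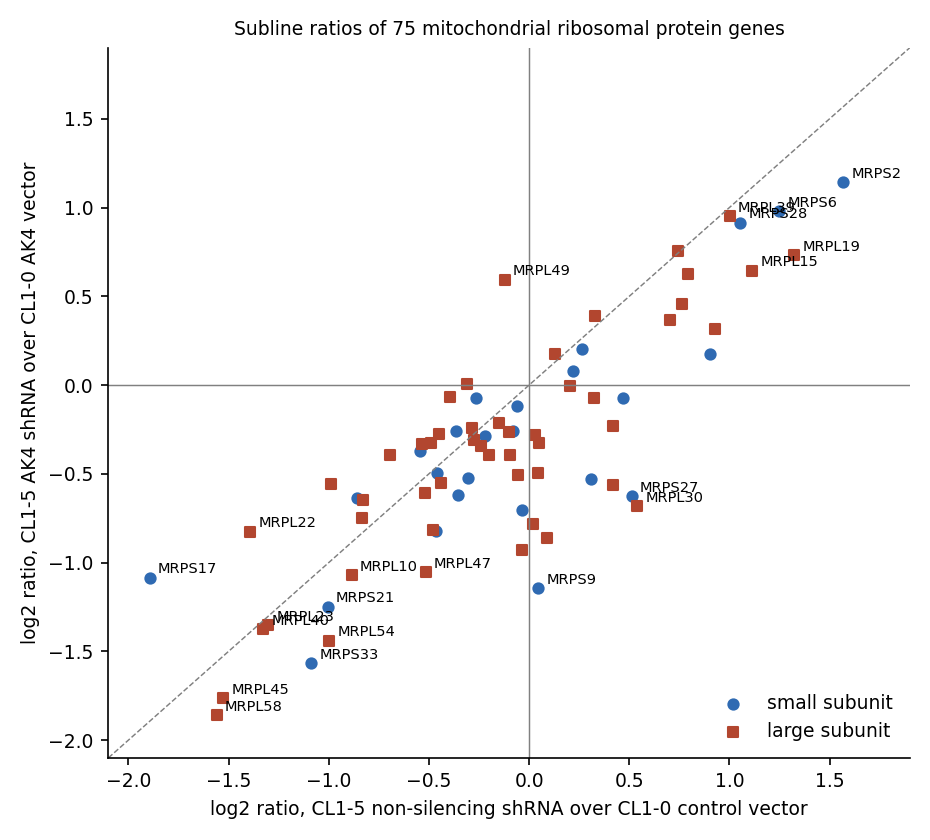
Log2 ratio of CL1-5 AK4 shRNA over CL1-0 AK4 vector (vertical axis) against CL1-5 non-silencing shRNA over CL1-0 control vector (horizontal axis) for 75 members, with small-subunit proteins as circles, large-subunit proteins as squares and a dashed line of equal ratios. MRPS2 lies at the upper right with a vertical value of 1.14 and a horizontal value of 1.57, MRPL58 at the lower left with a vertical value of -1.86 and a horizontal value of -1.56, and MRPS9, MRPS27 and MRPL30 lie below the line.

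The paralogs MRPS18A, MRPS18B and MRPS18C, relatives of one bacterial protein of which MRPS18C is the counterpart in the small subunit, had ratios on both sides of 0 between the lines. MRPS18C had a signal of 348 in CL1-5 with non-silencing shRNA and 478 in CL1-0 with control vector, a log2 ratio of -0.46. MRPS18A had 201 in CL1-5 and 184 in CL1-0, a ratio of 0.13, and MRPS18B had 511 in CL1-5 and 369 in CL1-0, a ratio of 0.47. The spread between probe sets was larger than these ratios, with a pooled SD of 0.84 over all genes and 0.57 over the members in this comparison. The other probe set was at 0.46 for MRPS18A and at 0.11 for MRPS18B, which reverses their order. Between the AK4-altered arrays MRPS18C was at -0.50, MRPS18A at 0.18 and MRPS18B at -0.075.

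Between the lines the mitochondrial aminoacyl-tRNA synthetase list lay on the other side, with a median of 0.41 and 12 of 18 genes above 0. Over all genes the median was 0.13 and 56% were above 0. Between the AK4-altered arrays the median of this list was 0.11, against 0.074 over all genes. CARS2, at 1.42, and AARS2, at 1.19, were at least 2-fold higher in CL1-5. Translation factors had a median of -0.42. Lower in CL1-5 by at least 2-fold were 5 of the 16, among them GUF1 at -2.07, LRPPRC, which stabilises mitochondrial messenger RNA, at -1.79, its partner SLIRP at -1.43 and the elongation factor GFM1 at -1.26. TUFM, the other main elongation factor, was at least 2-fold higher at 1.29. Assembly factors had a median of -0.42 with 3 of 25 at least 2-fold higher, among them MTERF3 at 1.98, and 3 lower, among them METTL15, a methylase of the small-subunit RNA, at -2.84, which lay close to the floor in CL1-5. The 8 regulators had a median of -0.72 with 5 below 0, and 2 were at least 2-fold lower in CL1-5, GABPA at -1.39 and YY1 at -1.04. The 9 genes of mitochondrial DNA transcription and replication had a median of 0.25 with 6 above 0. Of these 1 was at least 2-fold lower, SSBP1, the mitochondrial single-strand DNA-binding protein, at -1.40. Of all genes measured between the control arrays, 17.1% passed 2-fold upwards and 14.2% downwards. The 2-fold counts of the synthetases, the assembly factors and this last list were no larger than these shares. The lower translation factors, 5 of 16, and regulators, 2 of 8, exceeded the downward share, but these lists are small and the difference was not tested.

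Members with and without a promoter motif had like medians in the AK4 shRNA comparison, with no test. With an ETS core the median log2 ratio was -0.13 over 29 members, and without one -0.13 over 38. With a YY1 core it was -0.13 over 23 members, and without one -0.13 over 44. Between the control arrays of the lines the medians were -0.27 with an ETS core and -0.057 without one, but between the AK4-altered arrays they were -0.34 with one and -0.33 without.

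Back-to-back gene starts were looked for after the values had been seen. For 22 of the 67 members the promoter window overlapped that of a gene on the opposite strand pointing away, and 15 such pairs had both genes on the array. The share over all genes with a promoter entry was not counted, so this number does not set the members apart. MRPL46 and MRPS11, whose starts lie 320 bases apart, form a pair within the mitoribosome. MRPL46 had a ratio of 0.65 in the AK4 vector comparison and MRPS11 -0.049, while with AK4 shRNA they were at -0.24 and -0.27. MRPS12 starts 181 bases from SARS2, the mitochondrial seryl-tRNA synthetase. MRPS12 was at -0.49 on the array labelled AK4 vector and SARS2 at 0.74, and between the control arrays of the lines they were at -0.37 and 0.99. Of 14 pairs with both genes measured, 7 had the same sign in the AK4 vector comparison and 9 in the AK4 shRNA comparison.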

How the data were processed

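RNA of 4 cultures was hybridised to Affymetrix arrays, 1 array for each of 4 groups named by the genotype labels. The authors deposited 1 linear intensity per probe set. The submitters' processing notes name MAS5; its version, role and scaling are not given here. Deposited trimmed means were 36.8 (AK4 vector) and 37.5 (control vector) in CL1-0, and 69.4 (AK4 shRNA) and 68.5 (non-silencing shRNA) in CL1-5.

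The arrays were brought to the same trimmed mean (2% cut from either end, 62 control probe sets left out). Scaled values under their 40th percentile, 6.93, took that value, then log2 followed. This percentile was first taken over all probe sets, and the controls were dropped from it after a first look at the members. The platform annotation gave 1 symbol for 41097 probe sets, several for 1801 and none for 11777; symbols were updated by gene identifier. Each gene took its brightest probe set. Genes were measured with 1 of the compared arrays above the floor, and called at 2-fold. Named were the 6 highest and 6 lowest members per comparison, members past 2-fold in an AK4 comparison, the 3 highest and 3 lowest of each structural class between the control arrays, the MRPS18 paralogs, members with disagreeing probe sets and up to 4 genes of each other list.

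The members and lists were chosen with earlier results of these data known. The level-range background, the motifs, the gene pairs, the share below 0, the count of members lower on both CL1-5 arrays and the rule behind the closer look were added after values were seen. The calling procedure was tested on simulated data. Alternatives were other scalings, floors and probe set rules. Python 3.11.15, pandas 2.3.3 and SciPy 1.17.1 were used.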

Additional observations from a re-analysis of the deposited data

Results flagged for a closer look

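For 3 members the log2 ratio of CL1-5 over CL1-0 had opposite signs in the pair of AK4-altered arrays and in the pair of control arrays, and the ratios lay more than 1 apart. This rule was set after the values were seen, and the difference was not tested, since each group is 1 array. The share of all genes that meet the rule was not counted, so the number of members is not a result about them. MRPL30 was at -0.68 between the altered arrays and 0.54 between the control arrays, a difference of -1.22, but its probe sets disagreed, and 1 of them was at -1.56 between the control arrays. MRPS9 was at -1.14 between the altered arrays and 0.044 between the control arrays, a difference of -1.19. MRPS27 was at -0.63 between the altered arrays and 0.51 between the control arrays, a difference of -1.14. By arithmetic each difference equals the AK4 shRNA ratio minus the AK4 vector ratio, so it repeats the values given for CL1-0 and CL1-5 and is no further evidence.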

How the results depend on the processing

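No paired analysis was possible because each group is 1 array, and no replicate could be left out. The AK4 shRNA shift kept its direction under all 8 alternatives, with 78.7% to 89.3% of measured members or their probe sets below 0, and its median was -0.081 with a common median. A median was counted as moved when it changed by over 1.5 times. Neither the 60th percentile as floor nor no floor moved any median or count. In the AK4 vector comparison the median was 0.047 with the values as deposited, 0.0060 with a common median, 0.038 with probe sets averaged and reversed to -0.013 with every probe set on its own. The members at least 2-fold higher there were 0 with probe sets averaged and 4 without _x and _s probe sets, and with every probe set on its own 6 probe sets were higher and 2 lower. Between the control arrays of CL1-5 and CL1-0, the median was -0.014 with quantile normalization, -0.61 with a common median, -0.0060 with probe sets averaged, -0.018 without _x and _s probe sets and -0.046 with every probe set on its own. It reversed to 0.75 with the values as deposited, where 23 members were at least 2-fold higher, 1 lower and 14.7% below 0. A common median gave 1 higher and 19 lower, every probe set on its own 13 and 15, and 4 were lower without _x and _s probe sets. MRPL23 reversed to 0.21 there, and to 0.093 between the AK4-altered arrays. Between those arrays the median was -0.72 with a common median and -0.22 with every probe set on its own, and reversed to 0.57 with the values as deposited, where 16 were higher, 0 lower and 16% below 0. Quantile normalization gave 4 higher, a common median 0 higher and 23 lower, probe sets averaged 2 higher, the absence of _x and _s probe sets 2 higher and 6 lower, and every probe set on its own 5 higher and 18 lower. Both CL1-5 arrays lay above both CL1-0 arrays for 58 members as deposited, 9 with a common median, 23 with probe sets averaged and 39 with every probe set on its own. They lay below for 9 as deposited and for 20 without _x and _s probe sets. With every probe set on its own, single genes have no value. Without _x and _s probe sets 41 or 42 members were measured. The shares below 0 and the count of members lower on both CL1-5 arrays were added after the data were seen. The cause of these changes was not tested.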

Other observations

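Probe sets that the platform pairs with several symbols were left out of the members. The probe set for MRPS24, shared in name with the readthrough URGCP-MRPS24, had log2 ratios of 0.53 with the AK4 vector and -0.16 with AK4 shRNA. The probe set for MRPL53 and CCDC142 was at -0.087 with the AK4 vector and -0.25 with AK4 shRNA, and one for MRPL51 and SPTLC1 at -0.24 with the AK4 vector and -0.34 with AK4 shRNA. All 3 lay below 0 with AK4 shRNA, and all were above the floor on all 4 arrays.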
